A study of Homo sapiens with 12 samples.

Results

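In HSC-3 cells, 176 rows of the count tables stood lower after cyclopiazonic acid (CPA) than in untreated cells, and higher again where the ORAI inhibitor synta-66 was given together with CPA. A row was taken when its mean over all 12 libraries was at least 8 CPM (counts scaled to a fixed library size of 1e+06), its mean CPM with CPA was at most 0.7 of the untreated mean, and its mean with CPA and synta-66 was at least 1.4 times the mean with CPA alone. CPM values were computed on library sizes scaled by trimmed mean of M values (TMM). Of 60675 gene rows, 14911 had enough reads to be tested, 5054 reached the mean of 8 CPM, and 184 passed all 3 limits. Mitochondrial rows and the rows ENSG00000274021, SLC7A11-AS1, HMMR-AS1, HMMR, HIF1A and HRNR are set aside by the rule, which removed 8 of the 184. All 176 remaining rows passed the filter on low counts. The members were thus chosen by their mean CPM in CPA against untreated and in CPA_S66 against CPA, so the values in these 2 comparisons are a description and carry no test.

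HSC-3 is a human line from an oral squamous cell carcinoma, and these libraries hold this 1 line. The untreated group received neither compound. The CPA group was exposed to 25 µM CPA for 3 h. The third group, named CPA_S66 here, received the same CPA dose for the same time together with synta-66, at a dose that the labels do not name. Each group has 4 libraries of total RNA, and the labels do not say whether these came from separate cultures, so the spread between them may be technical. A group given synta-66 alone was not analysed here.

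CPA blocks the SERCA pump, which returns calcium from the cytosol to the endoplasmic reticulum. The emptied store is sensed by STIM proteins, which open ORAI channels in the plasma membrane, and calcium then flows in from outside. This influx, store-operated calcium entry, feeds calcineurin and NFAT, kinases and transcription factors in many cell types. Synta-66 blocks ORAI channels.

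In these tables many coding genes are read mainly on the other strand, so a row with a coding gene opposite it may hold that gene's transcript. A coding gene was taken as opposite when, in the GENCODE 44 annotation of GRCh38, 30 or more of its exonic bases lay across from the row. By this rule 60 members had 1 coding gene opposite, 12 had several, and 104 had none. For the 60 single pairs the overlap ran from 36 to 4356 bases, with a median of 236.5 bases. The row held more reads than the coding gene's own row in 46 of the 60 pairs, with a median ratio of 5.64. Members had to reach a mean of 8 CPM and the coding genes' own rows did not. The choice of rows therefore raises this count and ratio, and nothing is read from them. Reads of a row and of the gene opposite it cannot be told apart, and in bulk RNA fewer cells of a type and less RNA per cell cannot be told apart either.

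Assigned reads per library ran from 2.82e+06 to 5.46e+06, between 3.58% and 9.40% of the unique alignments. In 3 libraries, untreated replicate 3 and CPA_S66 replicates 1 and 4, non-unique alignments made up 78.9%, 89.3% and 87.0% of all alignments and mitochondrial rows 40.1%, 53.9% and 49.8% of gene reads. The other libraries stood between 32.9% and 57.6% for non-unique alignments. Without these 3 libraries the rule gave 175 rows, and 117 of the 176 members were still among them. All 10 epithelial markers, such as the keratins of squamous cells, were above 0, and their summed level was 7036 to 7623 CPM untreated, 7111 to 8174 CPM with CPA and 7984 to 8703 CPM in CPA_S66. Of the fibroblast markers 4 of 7 were at 0 in every library, as were 1 of 4 endothelial and 3 of 6 immune markers. The summed fibroblast level reached at most 1.25 CPM, the endothelial one 1.29 CPM and the immune one 8.80 CPM. These are values of the markers' own rows. For the fibroblast, endothelial and immune markers 0 opposite rows could be read, so the low sums do not show that such cells were absent. The part of these values in the members' levels was not tested.

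The members differ in level by orders of magnitude, but most were scarce. The untreated mean was under 20 CPM in 102 of them and over 100 CPM in 17. Coding rows made up 118 members and long noncoding RNAs 42. The rest were 7 processed and 2 unprocessed pseudogenes, 1 unclassified transcript, 1 microRNA row and 5 rows absent from GENCODE 44. Coding rows without a coding exon opposite were 44.9% of the members and 24.4% of all rows that reached 8 CPM. Rows opposite a coding exon were 22.2% (coding) and 18.8% (noncoding or pseudogene) of the members, and 33.4% and 32.6% of those rows.

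Promoters of genes opposite the most stable members are shown here as a description. All members share a direction in both contrasts because the rule chose it. Whether a member holds the transcript of the gene opposite it cannot be told. The 8 coding genes that are the only ones opposite a member kept under all 19 settings of the rule (other scalings, group medians, or libraries left out) were looked up in the RefSeq promoter table (GRCh38.p14), and 7 matched. Each sequence runs from 250 bases before to 50 bases after the gene's start, on the gene's own strand, and capitals mark a motif. NUDT6 (chr4:122922919-122923218, minus strand) and ZNF740 (chr12:53180472-53180771, plus strand) hold the ETS letters, and IL20RB (chr3:136957733-136958032, plus strand) holds a CCAAT box.
NUDT6: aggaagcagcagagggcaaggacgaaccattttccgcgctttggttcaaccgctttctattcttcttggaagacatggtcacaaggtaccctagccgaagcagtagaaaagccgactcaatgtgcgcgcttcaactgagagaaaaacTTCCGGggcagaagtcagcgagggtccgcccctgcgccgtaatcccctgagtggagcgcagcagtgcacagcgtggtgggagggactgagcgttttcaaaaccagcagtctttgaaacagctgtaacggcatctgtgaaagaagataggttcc
ZNF740: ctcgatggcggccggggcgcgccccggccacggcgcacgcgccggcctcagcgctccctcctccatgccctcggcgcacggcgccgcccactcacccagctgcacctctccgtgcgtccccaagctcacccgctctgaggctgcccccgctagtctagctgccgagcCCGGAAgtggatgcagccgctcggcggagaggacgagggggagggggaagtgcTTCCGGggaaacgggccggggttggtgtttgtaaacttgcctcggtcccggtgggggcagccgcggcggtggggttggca
IL20RB: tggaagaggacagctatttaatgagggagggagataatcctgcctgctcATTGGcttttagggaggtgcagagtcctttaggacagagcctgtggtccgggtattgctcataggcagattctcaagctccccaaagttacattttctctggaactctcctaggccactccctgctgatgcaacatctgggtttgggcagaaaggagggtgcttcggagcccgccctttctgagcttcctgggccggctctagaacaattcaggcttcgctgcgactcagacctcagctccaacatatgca
The promoters of ALPK2, IL16, ITGBL1 and PRICKLE1 held none of the 6 motifs searched.

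The motifs were searched on both strands in the 68 of 82 opposite coding genes that the table holds, and in 15345 coding promoters of the same length. The ETS letters CCGGAA were in 22.1% of the opposite genes' promoters and 23.1% of all, and CCAAT in 33.8% and 36.6%. The E-box CACGTG was in 10.3% against 8.89%, and the TEAD letters GGAATG in 14.7% against 11.7%. The AP-1 letters TGANTCA were in 4.41% against 5.74%, and the CRE letters TGACGTCA in 1.47% against 2.64%. These shares lie close together for each motif, and a match is a description of letters only.

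One member is a microRNA row, MIR3918, overlapping the gene opposite it. Its mature sequence in RefSeq (GRCh38.p14, chr6:158764715-158764735, minus strand) is printed with bases 2 to 8, the seed, in capitals.
hsa-miR-3918: aCAGGGCCgcagauggagacu
The row lies opposite SYTL3, a synaptotagmin-like protein of vesicle traffic, and whether its reads are its own or that gene's cannot be told. It stood at 16.7, 20.0, 22.5 and 17.9 CPM untreated, 11.9, 10.2, 14.1 and 12.1 CPM with CPA and 19.9, 14.9, 26.8 and 20.9 CPM in CPA_S66. All 4 CPA libraries lay below the other 8.

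Across the members the level with CPA was 0.166 to 0.698 of the untreated level, with a median of 0.602. CPA_S66 stood at 1.401 to 18.2 times CPA, with a median of 1.64, and at 0.559 to 3.64 of untreated, with a median of 1.00. All rows with 8 CPM had medians of 1.00, 1.01 and 1.01 for the same ratios. In single libraries the members' median was 97.1%, 93.1%, 98.7% and 102% of the untreated mean in the untreated group, 62.7%, 59.1%, 55.7% and 57.1% with CPA, and 99.4%, 93.8%, 101% and 107% in CPA_S66. The group means behind the rule hold these libraries, so the low CPA medians follow from the choice of rows.

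In 54 members (30.7%) all 4 CPA libraries lay below all 8 others, as did 3.21% of all rows with 8 CPM, and a member described as without overlap is 1 of these, whatever its untreated and CPA_S66 libraries do. By edgeR's quasi-likelihood test, with calls at adjusted p below 0.05 and 1.5-fold or more, 65 members (36.9%) were called lower with CPA, where 1.05% of all tested rows were called lower and 1.8% higher. In CPA_S66 against CPA, 72 (40.9%) were called higher, where 1.94% of all tested rows were called higher and 2.82% lower, and 42 were called in both contrasts. The rule used these contrasts, so nothing is read from these shares.

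**Figure D1:**
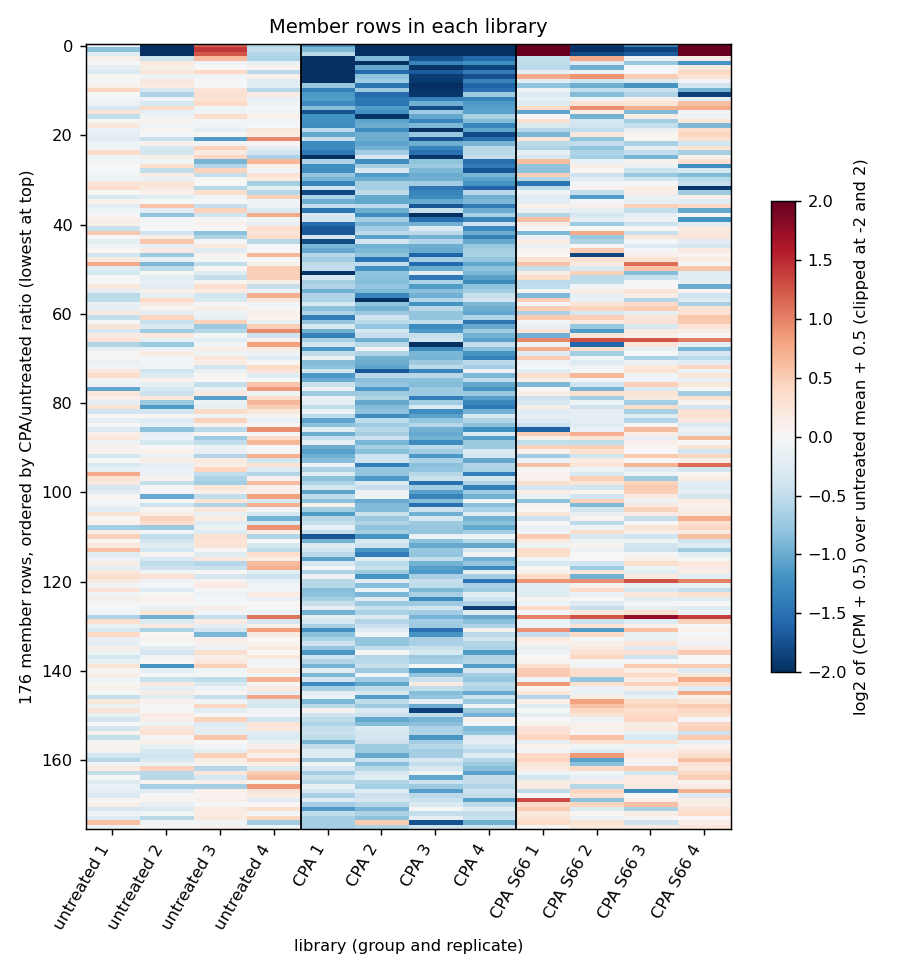
Each line is 1 of the 176 member rows and each column 1 library, and the colour is the log2 of (CPM + 0.5) over the untreated mean + 0.5, clipped at -2 and 2. The CPA columns are blue for nearly all rows, since the rule chose them so. The CPA_S66 columns are mostly near the untreated level, apart from some rows at the top and others further down, such as ANGPT4 and PDIA4.

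The members are described below by the known role of the coding gene opposite them or, with none opposite, of the row itself. These role groups were made by hand after the values were seen and were not tested.

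Among the 8 rows opposite genes of cell division and DNA upkeep, CPA stood at 0.534 to 0.678 of untreated and CPA_S66 at 1.44 to 2.14 times CPA, and in 7 rows the CPA libraries lay below all others. The row opposite DEPDC1, a protein of mitosis that is raised in many tumours, is ENSG00000233589 (chr1:68479129-68483539, plus strand). It stood at 166, 155, 199 and 173 CPM untreated, 91.4, 88.8, 87.6 and 103 CPM with CPA and 157, 177, 144 and 139 CPM in CPA_S66. The CPA libraries did not reach the others, and the means were 173 ± 18.7 CPM untreated, 92.6 ± 6.92 CPM with CPA and 154 ± 16.7 CPM in CPA_S66 (SD, n = 4).
HSD17B6 (chr12:56752161-56787790, plus strand) lies opposite PRIM1, the primase subunit that starts DNA strands. It stood at 114, 129, 137 and 135 CPM untreated, 96.5, 74.2, 81.5 and 85.3 CPM with CPA and 137, 139, 156 and 122 CPM in CPA_S66, and each CPA library was below the other 8. The row opposite PLK1, a kinase that drives entry into and passage through mitosis, is ENSG00000261266 (chr16:23687049-23687689, minus strand). Its values were 76, 77.6, 89.1 and 75.3 CPM untreated, 53.2, 43.9, 55.5 and 50.7 CPM with CPA and 68.2, 84, 71.5 and 72.7 CPM in CPA_S66, again without overlap.
KIF23-AS1 lies opposite KIF23, a kinesin of the last step of cell division, and opposite PAQR5. Its values were 131, 135, 129 and 137 CPM untreated, 96.8, 80.2, 80.6 and 87.4 CPM with CPA and 125, 112, 128 and 131 CPM in CPA_S66. The CPA libraries lay below the other 8, but without the 3 libraries rich in non-unique alignments its CPA_S66 over CPA ratio was 1.36, under the limit.
The pseudogene EIF2AK1P1 lies opposite ATR, the kinase of the DNA damage checkpoint, with 2048 bases of overlap. It stood at 26.2, 23.6, 27.5 and 28.7 CPM untreated, 16.5, 14.4, 17 and 10.6 CPM with CPA and 18.3, 18.5, 25.8 and 23.5 CPM in CPA_S66, so each CPA library was lowest but the return was partial, to 0.811 of the untreated mean. TMEM129, opposite the spindle protein TACC3, was the 1 row of the group whose libraries overlapped, at 0.576 of untreated with CPA.

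In the 10 rows opposite genes of ribosome making and RNA handling, the CPA level was 0.482 to 0.695 of untreated and CPA_S66 was 1.44 to 1.90 times CPA. ERCC1 (chr19:45407334-45478828, minus strand), a DNA repair nuclease subunit, lies opposite POLR1G, a subunit of RNA polymerase I, which makes ribosomal RNA. It was the second most abundant member with a coding gene opposite, at 574, 649, 582 and 633 CPM untreated, 252, 292, 310.5 and 322 CPM with CPA and 426, 435, 389 and 464 CPM in CPA_S66. All 4 CPA libraries were lowest, and every CPA_S66 library lay between the CPA and the untreated ones, at 0.703 of the untreated mean.
TTI2 lies opposite MAK16, a factor of 60S ribosome assembly. Its values were 520.0, 402, 433 and 632 CPM untreated, 417, 304, 306 and 343 CPM with CPA and 479.9, 420.1, 544 and 583 CPM in CPA_S66, and CPA replicate 1 overlapped the untreated group. CEBPZOS (chr2:37196488-37216193, plus strand) lies opposite CEBPZ, a nucleolar protein, and SULT6B1. It stood at 197, 243, 256 and 237 CPM untreated, 156, 153, 173 and 166 CPM with CPA and 258, 258, 265 and 245 CPM in CPA_S66, with no overlap.
These 3 rows were outside the rule without the 3 libraries rich in non-unique alignments: ERCC1 and TTI2 then had a CPA_S66 over CPA ratio of 1.37 each, and CEBPZOS a CPA over untreated ratio of 0.721. The other 7 rows were scarcer, at 9.60 to 53.0 CPM untreated. They are MDN1-AS1 opposite MDN1, an ATPase of ribosome assembly, PUS1-AS1 opposite the pseudouridine synthase PUS1, ENSG00000260773 opposite the exonuclease DIS3L, and REXO5 opposite the exonuclease ERI2. RPS25 lies opposite CENATAC, DHX38 opposite TXNL4B and PMFBP1, and EIF3A opposite NANOS1.

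The 12 rows opposite genes of the matrix, membrane and cytoskeleton had CPA levels of 0.400 to 0.698 of untreated, and CPA_S66 stood at 1.44 to 2.37 times CPA. In 7 of them the CPA libraries lay below all others. FGF14 (chr13:101710804-102402457, minus strand), a gene of the fibroblast growth factor family, lies opposite ITGBL1, a secreted protein with integrin beta-like repeats, with 4356 bases of overlap. It stood at 51.4, 51.8, 64.7 and 48.6 CPM untreated, 24.8, 19.5, 20.9 and 21.4 CPM with CPA and 49.1, 50.7, 57.5 and 47.4 CPM in CPA_S66. The CPA libraries lay under all the others by a wide gap, and CPA_S66 returned to 0.945 of the untreated mean.
DLD (chr7:107891162-107931730, plus strand), a subunit of mitochondrial dehydrogenases, lies opposite LAMB1, a chain of the basement membrane protein laminin. It stood at 100.3, 113, 106 and 102 CPM untreated, 52.9, 59.1, 59.4 and 73.8 CPM with CPA and 113, 102, 99.3 and 96.2 CPM in CPA_S66, without overlap. CDC42EP3-AS1 (chr2:37562486-37646698, plus strand) lies opposite CDC42EP3, an effector of the GTPase CDC42 that shapes actin and septins. Its values were 107, 129, 139 and 111 CPM untreated, 61.9, 65.3, 67.5 and 74.7 CPM with CPA and 123, 136, 147 and 125 CPM in CPA_S66, again without overlap.
NAV2, a neuron navigator that acts in cell migration, has 2 members opposite it, so they may share 1 transcript. NAV2-AS2 (chr11:20043767-20049458, minus strand) stood at 63.3, 56.6, 57.2 and 56 CPM untreated, 31, 54.6, 33.6 and 35.6 CPM with CPA and 84, 74.6, 77.1 and 68.3 CPM in CPA_S66. NAV2-AS1 (chr11:20119684-20120632, minus strand) stood at 38.5, 43.4, 47.8 and 48.9 CPM untreated, 21.2, 41.6, 20.7 and 27.2 CPM with CPA and 49.1, 46.4, 62.2 and 39.6 CPM in CPA_S66. In both rows CPA replicate 2 stood far above the other 3 CPA libraries, close to the untreated group in NAV2-AS2 and inside it in NAV2-AS1.
The other 7 rows were CAVIN2-AS1 opposite CAVIN2, a protein of caveolae, ENSG00000277299 opposite GIT2, an ARF GTPase regulator, ENSG00000275202 opposite FNDC3A, and ALK opposite CLIP4. CEP83 lies opposite PLXNC1, a semaphorin receptor, NPLOC4 opposite the tetraspanin TSPAN10, and FKBP14-AS1 opposite FKBP14, a folding enzyme of collagen in the endoplasmic reticulum. CAVIN2-AS1 was the lowest of these with CPA, at 0.436 of untreated, and its libraries overlapped.

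The 13 rows opposite receptors and signalling proteins include the 2 lowest CPA levels among rows with a coding gene opposite and stood at 0.300 to 0.698 of untreated with CPA, and CPA_S66 stood at 1.44 to 3.34 times CPA. In 9 of the 13 the CPA libraries lay below all others. STARD5 (chr15:81309053-81324183, minus strand), a sterol-binding protein, lies opposite IL16, a cytokine that attracts CD4+ cells, with 4351 bases of overlap. It stood at 14.6, 18.2, 16.6 and 17.3 CPM untreated, 3.87, 7.91, 3.89 and 4.32 CPM with CPA and 11.4, 8.33, 16.2 and 19.1 CPM in CPA_S66. The CPA libraries were all lowest, but CPA replicate 2 came close to CPA_S66 replicate 2.
ENSG00000267257 (chr18:58535415-58538552, plus strand) lies opposite ALPK2, an alpha-type kinase. Its values were 26.2, 37.6, 42.5 and 22.3 CPM untreated, 7.23, 10.7, 9.82 and 11.9 CPM with CPA and 28, 29.5, 31.7 and 43.1 CPM in CPA_S66, so CPA_S66 was 3.34 times CPA with no overlap. ALPK2's own row was nearly empty, at 0 in 9 of the 12 libraries.
ENSG00000257225 (chr12:42459366-42466128, plus strand) lies opposite PRICKLE1, a core protein of planar cell polarity, the system that orients cells within a sheet. It stood at 32.9, 28.6, 47.2 and 33.7 CPM untreated, 14.5, 12.6, 18 and 16 CPM with CPA and 29.2, 43.7, 43 and 54.4 CPM in CPA_S66. The CPA libraries were below all others, and the CPA_S66 libraries spread most.
IL20RB-AS1 (chr3:136959125-136982196, minus strand) shares 37 exonic bases with IL20RB, a receptor chain for the interleukin 20 family. It stood at 27.7, 21.4, 23.4 and 24 CPM untreated, 14.7, 8.37, 14.7 and 13.8 CPM with CPA and 29.2, 30.4, 29.5 and 27 CPM in CPA_S66. IL24, a ligand of that receptor, is a member too, as the row opposite FCMR, and stood at 0.648 of untreated with CPA and 1.44 times CPA in CPA_S66, with overlap. Both rows also hold reads that may be another gene's.
ENSG00000267743 lies opposite NEDD4L, a ubiquitin ligase that removes sodium channels from the membrane. It stood at 14.8, 15.4, 14.1 and 14.1 CPM untreated, 5.94, 6.74, 5.53 and 7.77 CPM with CPA and 18.3, 11.5, 8.84 and 17 CPM in CPA_S66. The untreated libraries were close together, the CPA libraries all lower, and 1 CPA_S66 library, replicate 3, was near the CPA level.
MED12L (chr3:151085286-151437072, plus strand), a Mediator subunit, lies opposite coding genes that include IGSF10 and the purine receptor P2RY12. Its values were 202, 238, 244 and 220.0 CPM untreated, 127, 117, 154 and 115 CPM with CPA and 321, 306, 322 and 274 CPM in CPA_S66, so all 4 CPA_S66 libraries stood above the untreated ones. LYPD1 (chr2:132643286-132671579, minus strand) lies opposite GPR39, a receptor sensing zinc. It stood at 274, 237, 250.4 and 277 CPM untreated, 185, 159, 177 and 196 CPM with CPA and 273, 246, 243 and 272 CPM in CPA_S66, and its CPA_S66 over CPA ratio was 1.33 without the 3 libraries.
ABALON (chr20:31721507-31723409, plus strand), a noncoding RNA, lies opposite BCL2L1, which encodes the survival protein BCL-xL. It was the most abundant member with a coding gene opposite, at 736, 809, 833 and 757 CPM untreated, 494, 519, 581 and 596 CPM with CPA and 804, 906, 877 and 915 CPM in CPA_S66. It lies just inside the limit of 0.7, and passed it under 8 of 19 settings, not among them the one without the 3 libraries, where the ratio was 0.716. XRRA1 (chr11:74807739-74949200, minus strand) lies opposite RNF169, a ubiquitin ligase of DNA break repair, with 224, 251, 293 and 242 CPM untreated, 166, 173, 159.6 and 170.1 CPM with CPA and 263, 249, 248 and 253 CPM in CPA_S66. Its CPA libraries were lowest, with a ratio of 0.702 to untreated without the 3 libraries.
EIF3G lies opposite the purine receptor P2RY11, ENSG00000225850 opposite FRAT2, a WNT pathway protein, and ENSG00000253445 opposite NEURL1B, a ubiquitin ligase of the Notch pathway. They stood at 0.636, 0.602 and 0.611 of untreated with CPA, and the libraries of each overlapped.

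**Figure D2:**
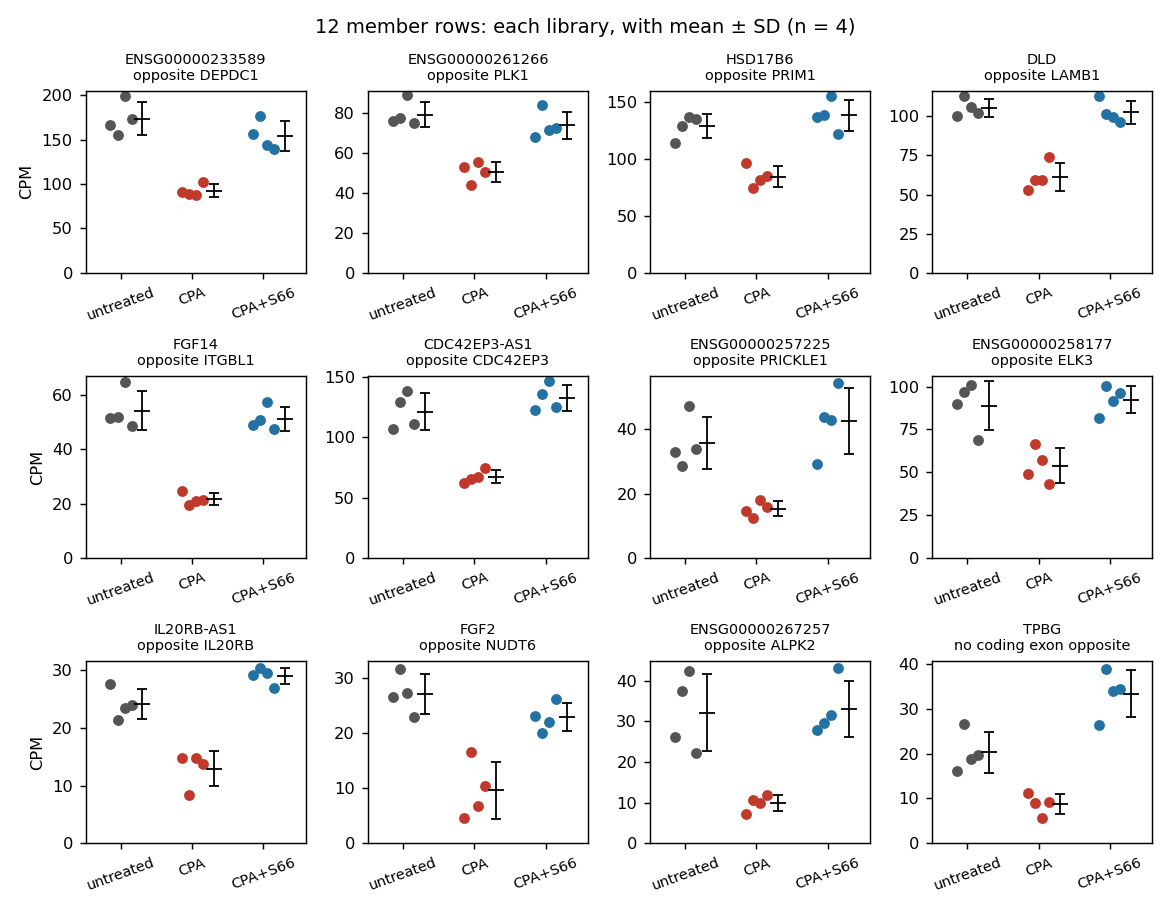
Each panel shows 1 member row, with a point for each library in CPM and a bar for the mean ± SD of its 4 libraries, from untreated (grey) through CPA (red) to CPA with synta-66 (blue). In these 12 rows the red points sit below all grey and blue ones, as in ENSG00000233589 opposite DEPDC1, where they span 87.6 to 103 CPM. The rows were picked by hand, and only 54 of the 176 members (30.7%) were without overlap.

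Opposite genes of transcription, most of them zinc fingers, lay 9 members, at 0.524 to 0.698 of untreated with CPA and 1.401 to 2.11 times CPA in CPA_S66. ENSG00000258177 (chr12:96222797-96223973, minus strand) lies opposite ELK3, an ETS factor that is a target of ERK signalling. It stood at 89.5, 96.6, 101 and 68.6 CPM untreated, 48.8, 66.3, 57.3 and 43.4 CPM with CPA and 81.5, 100.5, 91.4 and 96.2 CPM in CPA_S66. The CPA libraries were lowest, with a gap of little more than 2 CPM between CPA replicate 2 and untreated replicate 4.
ITGB7 (chr12:53191323-53207282, minus strand), an integrin chain of lymphocytes, lies opposite ZNF740, whose promoter is printed above. It stood at 21.4, 17.4, 20.0 and 19 CPM untreated, 9.55, 12.1, 9.41 and 15.8 CPM with CPA and 27.6, 32.4, 21.6 and 17 CPM in CPA_S66, again with all CPA libraries lowest. The most abundant of the group was ENSG00000279364 opposite ZNF770, with means of 371 ± 31.1 CPM untreated, 259 ± 12.8 CPM with CPA and 424 ± 41.8 CPM in CPA_S66 (SD, n = 4). The remaining 6 rows were ZNF140 opposite ZNF891, ENSG00000269535 opposite ZNF480, ZNF230-DT opposite ZNF155 and ZNF230, NONO opposite ZMYM3, SCLT1 opposite JADE1 and C4orf33, and ENSG00000268218 opposite ANKRD11. ANKRD11, a chromatin regulator, is a member in its own right too, at 0.624 of untreated with CPA, and its row and the opposite one stand at 14.2 and 32 CPM untreated.

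The 10 rows opposite genes of vesicles, transport and metabolism stood at 0.354 to 0.692 of untreated with CPA. FGF2 (chr4:122826682-122898236, plus strand), a growth factor of fibroblasts and epithelia, lies opposite NUDT6, known as the FGF2 antisense gene, with 804 bases of overlap. It stood at 26.4, 31.6, 27.2 and 22.9 CPM untreated, 4.65, 16.5, 6.75 and 10.4 CPM with CPA and 23.1, 20.0, 21.9 and 26.1 CPM in CPA_S66. Each CPA library was lowest, but they spread from 4.65 to 16.5 CPM. NUDT6's own row was higher and was called in none of the 3 comparisons, with 89.5, 107, 92.5 and 115 CPM untreated, 123, 133, 113 and 129.9 CPM with CPA and 141, 121, 127 and 150.1 CPM in CPA_S66.
Opposite SYT16, a synaptotagmin, and the overlapping coding gene ENSG00000289503 lie 2 members, which may share 1 transcript. ENSG00000258842 (chr14:62069518-62081154, minus strand) stood at 44.8, 28.8, 35.3 and 29 CPM untreated, 15.2, 23.3, 23.3 and 18.3 CPM with CPA and 44.2, 55, 32.7 and 40.5 CPM in CPA_S66. ENSG00000258903 (chr14:62103122-62117175, minus strand) stood at 53.5, 47.4, 40.9 and 54.5 CPM untreated, 34.6, 30.9, 28.2 and 30.2 CPM with CPA and 46.2, 62.8, 53.1 and 54.8 CPM in CPA_S66. Neither row's CPA libraries overlapped the others.
Beside MIR3918 the group holds RAB33B-AS1 opposite RAB33B and NAA15, ENSG00000260051 opposite the lysosomal chloride transporter CLCN7, and RXRB opposite the zinc transporter SLC39A7. CARHSP1 lies opposite PMM2, an enzyme of protein glycosylation, TMEM87A opposite GANC, and ANAPC15 opposite LRTOMT and TOMT. Their libraries overlapped in every case.
A last 10 rows lie opposite genes of other roles: NNAT opposite BLCAP, SAPCD1-AS1 opposite SAPCD1 and the readthrough gene MSH5-SAPCD1, POLE3 opposite C9orf43, AJUBA-DT opposite C14orf93, and CCDC59 opposite METTL25. GLB1L lies opposite ANKZF1, RBBP7 opposite TXLNG, EWSR1 opposite RHBDD3, AMIGO2 opposite PCED1B, and SMC4 opposite TRIM59 and IFT80. NNAT was the most abundant, with 91, 89.2, 99.1 and 112 CPM untreated, 50.8, 49.1, 49.9 and 46.2 CPM with CPA and 64.9, 84.7, 74.7 and 67.4 CPM in CPA_S66. Its CPA libraries were all lowest and its CPA_S66 mean was 0.746 of untreated.

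Of the 99 annotated rows with no coding exon opposite, 15 overlapped the body of a coding gene on the other strand outside its exons. In 10 others a coding gene's 3′ end faced the row within 5000 bases, in 16 a 5′ end did, and 58 had none so near. For most of these rows, then, the annotation gives no coding gene whose reads they could hold, and they are described by their own names. Where a coding gene is read mainly on the other strand, its own row holds only a small part of its reads. The values of the coding rows below are therefore levels of the row and may not be the gene's expression.

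C11orf68 (chr11:65916810-65919062, minus strand) was the most abundant of them. It stood at 292, 273, 270.0 and 258 CPM untreated, 140.4, 132, 136 and 147 CPM with CPA and 235, 263, 238 and 235 CPM in CPA_S66. The CPA libraries were all below the others, at a ratio of means to untreated of 0.508, and the start of DRAP1, a corepressor, faces the row 212 bases away.
The 15 rows of secreted and surface proteins stood at 0.388 to 0.696 of untreated with CPA and at 1.42 to 3.91 times CPA in CPA_S66. TPBG (chr6:82363206-82367420, plus strand), an oncofetal surface glycoprotein also called 5T4, stood at 16, 26.6, 18.8 and 19.6 CPM untreated, 11.1, 9.07, 5.53 and 9.28 CPM with CPA and 26.4, 39, 33.9 and 34.4 CPM in CPA_S66. ANGPT4 (chr20:869900-916334, minus strand), an angiopoietin that binds the TIE2 receptor, stood at 15.6, 11.2, 10.9 and 13.8 CPM untreated, 8, 6.28, 9.62 and 5.83 CPM with CPA and 25.6, 32.2, 31.4 and 27 CPM in CPA_S66. In both rows all CPA libraries were lowest; in ANGPT4 all CPA_S66 libraries were highest, and in TPBG 3 of the 4 were.
The pregnancy-specific glycoproteins PSG1 and PSG4 stood at 0.388 and 0.627 of untreated with CPA, and reads of these near-identical genes may be split, so their values are uncertain. F3, tissue factor, the starter of blood clotting, stood at 25.6, 24.4, 19.7 and 41 CPM untreated, 20.1, 16, 14.9 and 13.4 CPM with CPA and 14.6, 20.9, 38.6 and 32.6 CPM in CPA_S66, and all 3 groups overlapped. SCN9A, a sodium channel, stood at 43.1, 53.2, 55.3 and 58 CPM untreated, 33.3, 39.1, 36 and 37.6 CPM with CPA and 51.5, 66.2, 52.8 and 43.1 CPM in CPA_S66, without overlap of the CPA group. The others, which stood at 0.448 to 0.696 of untreated with CPA, included FJX1, APP, LRRN3, GPR22, LRRC8E, CD200R1L, SLC38A1 and EZR.

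Among the 14 rows of chromatin and DNA proteins 4 were histone genes. The linker histone H1-2 stood at 29.4, 29, 15.9 and 49.2 CPM untreated, 19.9, 12.8, 17.4 and 10.6 CPM with CPA and 47.5, 28.2, 32.4 and 39.2 CPM in CPA_S66. H1-5 stood at 94.1, 82.6, 67.5 and 131 CPM untreated, 74.3, 53, 34.6 and 44.5 CPM with CPA and 120.5, 64.9, 69 and 80.5 CPM in CPA_S66. Their groups overlapped, histone genes are near-identical so that reads may be split, and without the 3 libraries H1-5 had a CPA_S66 over CPA ratio of 1.27. H2BC12 and H2BC21 were scarcer, at 9.39 and 9.42 CPM untreated. SET, a histone chaperone, had means of 193 ± 76.7 CPM untreated, 116 ± 37.8 CPM with CPA and 169 ± 37.7 CPM in CPA_S66 (SD, n = 4). The others were HMGB2, HMGN2, ANP32E, NAP1L1, NUCKS1, MPHOSPH8, MCM3, ANKRD11 and ZNF432, at 0.501 to 0.691 of untreated with CPA, and in MPHOSPH8 alone of the 14 the CPA libraries lay below all others.
In none of the 17 rows of ribosome and RNA proteins did all CPA libraries lie below the others. WDR43, a nucleolar protein of ribosome making kept under all 19 settings, stood at 12.5, 10.2, 15.3 and 20.8 CPM untreated, 10.3, 6.05, 7.16 and 8.2 CPM with CPA and 10.5, 11.9, 22.1 and 21.8 CPM in CPA_S66. These groups overlapped, with CPA replicate 1 just above the lowest untreated library. TIAL1, an RNA-binding protein of stress granules, was also kept under all settings, with means of 8.86 ± 2.45 CPM untreated, 5.03 ± 1.45 CPM with CPA and 12.3 ± 1.18 CPM in CPA_S66 (SD, n = 4). The others were the nucleolar LYAR, NCL and GNL1, the ribosomal RPL13A, RPL37A and RPL26, the splicing-linked RBM39, HNRNPH1, PNN, PRPF38B and ZC3H13, and YBX1, PABPC1L, TARS1 and SRP14. Their untreated means were 9.52 to 32.5 CPM, and rows of ribosomal protein genes can take reads of processed pseudogenes.

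The 15 rows of signalling, folding and traffic proteins stood at 0.451 to 0.688 of untreated with CPA. PRKG1, a kinase activated by cyclic GMP, stood at 12.3, 13.8, 14.4 and 16.1 CPM untreated, 6.71, 6.98, 8.19 and 3.67 CPM with CPA and 7.3, 16.4, 14.7 and 19.1 CPM in CPA_S66. TRIP10, an adaptor of CDC42, stood at 12.5, 21.8, 10.3 and 13.5 CPM untreated, 10.3, 10.0, 4.09 and 5.18 CPM with CPA and 15.4, 15.5, 20.4 and 19.1 CPM in CPA_S66. Both were kept under all settings, although 1 library in the untreated or CPA_S66 group reached the CPA range in each. PHLDA1, a target of ERK signalling, stood at 52.7, 49.4, 43.8 and 63.6 CPM untreated, 34.1, 28.4, 29.3 and 50.5 CPM with CPA and 55.2, 55.9, 57 and 70.1 CPM in CPA_S66, and CPA replicate 4 overlapped the untreated group. PDIA4, a disulfide isomerase of the endoplasmic reticulum, stood at 4.16, 3.2, 4.69 and 14.6 CPM untreated, 5.68, 5.35, 3.27 and 3.02 CPM with CPA and 13.8, 16.7, 23.8 and 18.3 CPM in CPA_S66. Its untreated mean of 6.68 CPM rests on replicate 4, and the other 3 untreated libraries lay within the CPA range.
SBF2, a regulator of RAB GTPases, had means of 119 ± 9.11 CPM untreated, 77.7 ± 9.16 CPM with CPA and 121 ± 12.7 CPM in CPA_S66 (SD, n = 4) with all CPA libraries lowest, and the start of ADM, the hormone adrenomedullin, faces the row 196 bases away. The others were PPM1G, RAB11FIP3, SNX5, PPFIA1, UBE2D3, TRIM44, ASB8, KPNA1, PARP15 and HSPA4.
The 13 rows of metabolism, at 0.487 to 0.694 of untreated with CPA, included HK2, IDH3B, GALK1, IDI1, NAPRT, SLC25A1, IMMT, ATP5MF, CKMT2, SIRT5, PEX26 and GALNT3. In none of them were all CPA libraries lowest. HK2, the hexokinase that starts glycolysis in many tumours, stood at 38.1, 42.4, 35 and 35.2 CPM untreated, 26.3, 24.6, 19.6 and 16.4 CPM with CPA and 31.6, 23.2, 37.8 and 29.6 CPM in CPA_S66, where CPA_S66 replicate 2 lay within the CPA range. The other coding rows were MYH3, LNP1, ABITRAM and SPDYE1.

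Of 20 noncoding or pseudogene rows without a coding exon opposite, 9 had all CPA libraries below the others and 15 stayed members without the 3 libraries. LINC01547 (chr21:44932814-44939941, minus strand) stood at 40.8, 47.4, 39.4 and 36.9 CPM untreated, 9.55, 5.81, 16.2 and 17.3 CPM with CPA and 28.8, 34, 24.1 and 17.8 CPM in CPA_S66. The return was partial, to 0.637 of the untreated mean, and no CPA_S66 library reached the untreated group. The rows with the lowest CPA ratio of the annotated members were ENSG00000274718 at 0.294, LINC01547 at 0.297, STARD5 at 0.3, ENSG00000267257 at 0.308 and ENSG00000228626 at 0.315. The other noncoding rows were NORAD, LINC00705, LINC02983, ALG1L9P, ENSG00000235204, ENSG00000253854, ENSG00000231119, ENSG00000206567, ENSG00000272320 and ENSG00000266466, and the pseudogenes were RIMKLBP2, MARK2P16, HMGB1P14, RPL21P83, ENSG00000251229, ENSG00000226329 and ENSG00000255566.
The 5 rows absent from GENCODE 44 include the most extreme ratios. ENSG00000277048 stood at 28535, 3436, 79258 and 22560.5 CPM untreated, 22920.4, 1568, 3578 and 6938 CPM with CPA, and 255573, 9644, 10530.3 and 210799 CPM in CPA_S66. ENSG00000256618 stood at 40.2, 2.40, 191 and 51.3 CPM untreated, 38.2, 0.465, 5.32 and 6.04 CPM with CPA, and 444, 12.6, 19.4 and 436 CPM in CPA_S66. In both rows the libraries with the most reads are untreated replicate 3 and CPA_S66 replicates 1 and 4, the 3 with the most non-unique alignments. Without those 3 the CPA_S66 over CPA ratios were 1.13 and 1.25, and none of the 5 rows stayed a member.

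At the limit of 0.7 for CPA over untreated, the members just inside were ABALON, ALK and PRPF38B, each at 0.698, and the rows just outside were TMA7 and MITD1 at 0.701 and ENSG00000260279 at 0.702. At the limit of 1.4 for CPA_S66 over CPA, ZNF140 at 1.401, HSPA4 at 1.404 and HK2 at 1.405 lay inside, and ABTB2 and TRIM8-DT at 1.399 and WARS2-AS1 at 1.398 lay outside. So the edge of the set is a line through a continuum of values.

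The question of whether synta-66 brought the members back to untreated is addressed by CPA_S66 against untreated. This ratio is the product of the 2 ratios that the rule limits, from the same group means, so the choice of rows shapes it. Its counts, medians and p-values in the members are given as a description, and nothing is read from how they differ from those of all rows. By edgeR's quasi-likelihood test 4 of the 176 members (2.27%) were called higher and 0 lower, against 1.66% and 1.24% of all tested rows. At an unadjusted p under 0.05 the counts were 15 higher and 5 lower, where 6.67% and 7.69% of all tested rows were, and DESeq2 called 4 and 0. The members' median log2 fold change was 0.02, against -0.06 over all tested rows. The ratio of group means was above 1 in 91 members and below 1 in 85, and 136 (77.3%) stood between 0.8 and 1.25, as did 70.2% of all rows with 8 CPM. A p that misses the threshold does not show that a row was equal in both groups. Passing the limit on p at less than 1.5-fold were ERCC1, with a log2 fold change of -0.51 (edgeR adjusted p = 2.10e-05), NNAT, with -0.41 (edgeR adjusted p = 0.0312), and MED12L, with 0.44 (edgeR adjusted p = 0.00225). ERCC1 was called lower without the 3 libraries (-0.62, edgeR adjusted p = 8.08e-05). LINC01547, at -0.64 (edgeR adjusted p = 0.0943), was called lower in 3 alternatives, with no filter on low counts, with only the 2 groups compared in the fit and without CPA replicate 2, with edgeR adjusted p from 0.0372 to 0.0441.
The 4 members called higher than untreated were ANGPT4, PDIA4, ENSG00000266466 and TPBG. ANGPT4 rose by a log2 fold change of 1.18 (edgeR adjusted p = 0.000459), a call kept under all 22 alternatives, with every CPA_S66 library above every untreated one. The noncoding row ENSG00000266466 stood at 11, 9, 10.3 and 8.5 CPM untreated and 18.3, 18.7, 24.1 and 20.0 CPM in CPA_S66, without overlap, a log2 fold change of 1.06 (edgeR adjusted p = 0.0124). That call was lost without the 3 libraries (edgeR adjusted p = 0.0780) and without CPA_S66 replicate 3 (edgeR adjusted p = 0.0713).
PDIA4 rose by 1.48 on the log2 scale (edgeR adjusted p = 0.00711), and lost its call without untreated replicate 1, untreated replicate 2 or CPA_S66 replicate 3, with edgeR adjusted p of 0.0516, 0.0548 and 0.0572. TPBG rose by 0.72 (edgeR adjusted p = 0.0384), and lost its call in 7 of 22 alternatives. These were the fits without the 3 libraries, without untreated replicate 1, 3 or 4 and without CPA_S66 replicate 2, 3 or 4, with edgeR adjusted p from 0.0684 to 0.167.

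**Figure D3:**
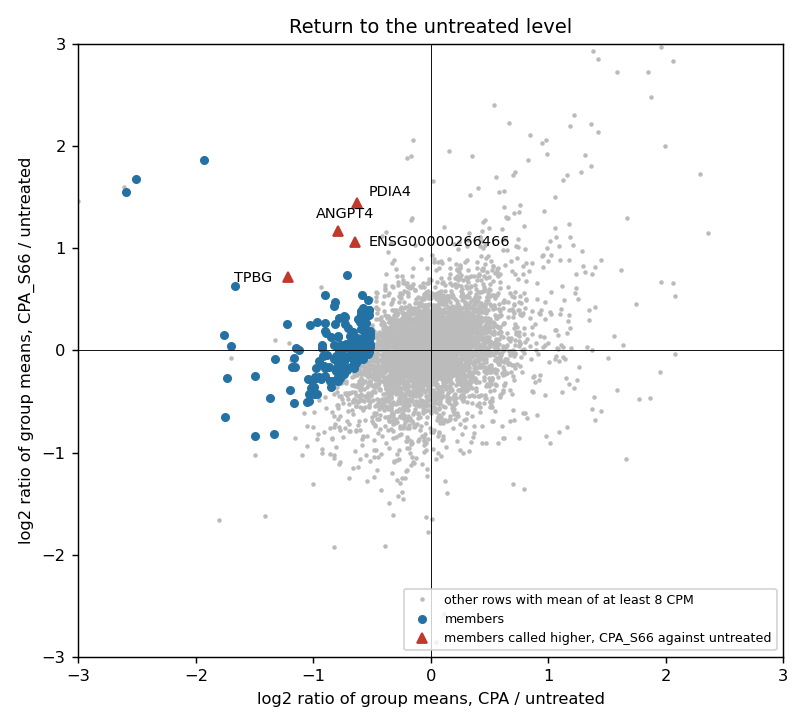
Each point is a row with a mean of at least 8 CPM, with the log2 ratio of CPA to untreated on the x axis and of CPA_S66 to untreated on the y axis. The members (blue) fill the left side by choice and straddle 0 on the y axis, and the 4 called higher (red triangles) are ANGPT4, PDIA4, ENSG00000266466 and TPBG.

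The own rows of the opposite coding genes hold other reads than the members, so they can be tested. Which of the 2 rows holds the coding gene's transcript cannot be told, so a change of an own row is given as a change of that row only. Of 81 such genes that are no members, the own rows of 65 had enough reads. In CPA against untreated 2 were called higher and 0 lower by edgeR, where 2.85% of all tested rows were called in either direction, and DESeq2 called the same numbers. At an unadjusted p under 0.05, 5 were higher and 8 lower, where 7.83% and 7.28% of all tested rows were. The log2 fold change was below 0 in 40 and above 0 in 25, with a median of -0.20 against -0.01 over all rows.
Own rows that passed the limit on p with CPA but changed by less than 1.5-fold were TRIM59 and GPR39, both lower. TRIM59, a TRIM family protein that lies with IFT80 opposite the member SMC4, stood at 1139, 1221, 1446 and 1183 CPM untreated, 893, 1008, 993 and 1057 CPM with CPA and 1281, 1138, 1224 and 1234 CPM in CPA_S66. Its log2 fold changes were -0.34 ± 0.07 (SE, edgeR adjusted p = 0.00234) with CPA and 0.30 ± 0.07 (edgeR adjusted p = 0.00513) in CPA_S66 against CPA, and all 4 CPA libraries lay below the other 8. GPR39, opposite LYPD1, changed by -0.45 ± 0.12 (SE, edgeR adjusted p = 0.0125) with CPA and by 0.17 ± 0.12 (edgeR adjusted p = 0.477) in CPA_S66 against CPA.
The 2 own rows called higher with CPA, those of DEPDC1 and IL16, lie opposite members that were lower. Untreated, DEPDC1's own row held less than the member, at 13.3 against 173 CPM, and IL16's held more, at 117 against 16.7 CPM. Whether the transcripts of these genes rose or fell can therefore not be told. DEPDC1's own row stood at 11.7, 11.6, 16.6 and 13.2 CPM untreated, 24.3, 63, 31.5 and 31.7 CPM with CPA and 13, 5.86, 12 and 19.6 CPM in CPA_S66. Its log2 fold change was 1.52 ± 0.26 (SE, edgeR adjusted p = 7.08e-05) with CPA and -1.63 ± 0.27 (edgeR adjusted p = 2.76e-05) in CPA_S66 against CPA. The 4 CPA libraries were the highest of the 12, whereas in the opposite row ENSG00000233589 they were the lowest.
IL16's own row stood at 122, 125, 120.3 and 103 CPM untreated, 248, 229.7, 221 and 238 CPM with CPA and 199.6, 243, 220.1 and 199 CPM in CPA_S66. It rose by 0.99 ± 0.09 (SE, edgeR adjusted p = 1.27e-10) with CPA, without overlap, and its change from CPA to CPA_S66 was -0.12 ± 0.09 (edgeR adjusted p = 0.550). The opposite row STARD5 was lowest with CPA and returned in CPA_S66. Both calls of a rise were kept under all 22 alternatives.
In CPA_S66 against CPA, where 4.76% of all rows were called in either direction, 4 of 65 own rows rose and 2 fell by edgeR, and all 6 calls were kept under every one of 22 alternatives. CLIP4, a microtubule-binding protein opposite ALK, stood at 4.16, 4, 4.69 and 5.86 CPM untreated, 3.1, 1.4, 1.64 and 1.94 CPM with CPA and 7.3, 7.21, 6.39 and 5.22 CPM in CPA_S66, a log2 fold change of 1.70 (edgeR adjusted p = 0.0116). ZNF891, opposite ZNF140, stood at 65.2, 69.6, 82.2 and 57.1 CPM untreated, 42.8, 57.2, 62.4 and 63.5 CPM with CPA and 88, 106, 124 and 118 CPM in CPA_S66, a log2 fold change of 0.95 (edgeR adjusted p = 1.12e-06). In both rows all CPA_S66 libraries were above all CPA libraries.
SLC39A7, a zinc transporter of the endoplasmic reticulum opposite RXRB, rose by 0.80 (edgeR adjusted p = 0.00222), and PMM2, opposite CARHSP1, by 0.74 (edgeR adjusted p = 0.00158). FCMR, a receptor for immunoglobulin M opposite IL24, fell by 1.01 on the log2 scale (edgeR adjusted p = 0.00626), as did DEPDC1. So own rows moved the same way as the opposite member in 4 genes and the other way in 2. In CPA_S66 against untreated, where 2.90% of all rows were called in either direction, 3 own rows were called higher and 0 lower (6 and 1 at an unadjusted p under 0.05, where 6.67% and 7.69% of all rows were, and 3 and 0 by DESeq2): IL16, ZNF891 and SLC39A7. The SLC39A7 call (edgeR adjusted p = 0.0310) was lost without the 3 libraries, without untreated replicate 1, 3 or 4 and without CPA_S66 replicate 2, 3 or 4, with edgeR adjusted p from 0.0510 to 0.128.

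**Figure D4:**
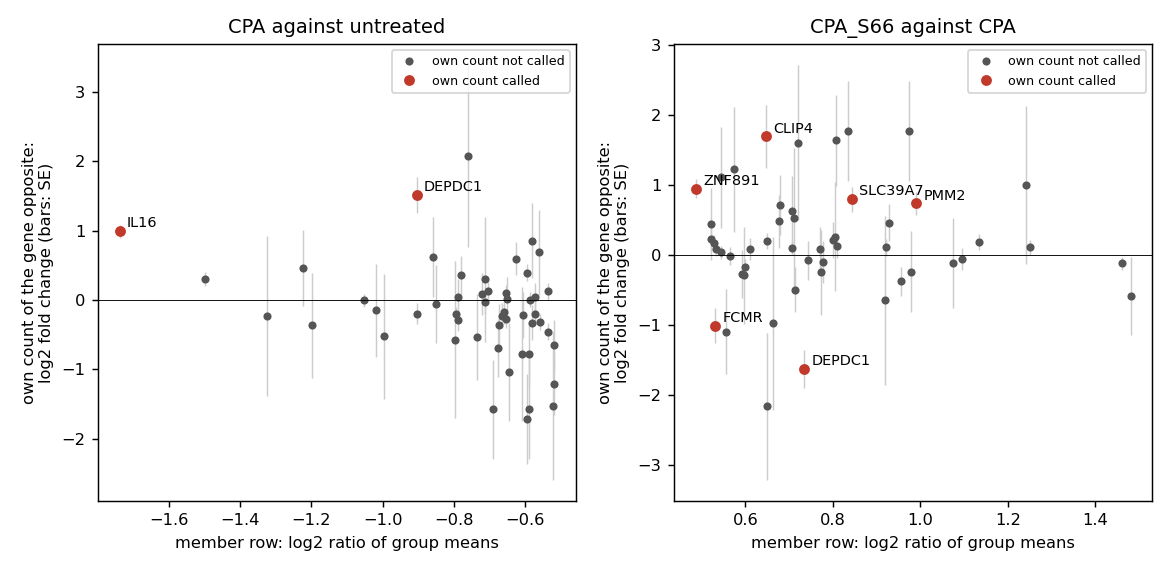
For 51 members with 1 coding gene opposite, the x axis is the log2 ratio of group means of the member and the y axis the log2 fold change of the coding gene's own row with its SE as a bar. The own rows scatter on both sides of 0 in each comparison, and the called ones (red) are IL16 and DEPDC1 on the left and CLIP4, ZNF891, SLC39A7, PMM2, FCMR and DEPDC1 on the right.

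Rows that are no members but lie opposite an exon of the same coding genes give a further set of reads. There were 21, of which 19 were tested, and rows opposite the same gene are not independent of each other. In CPA against untreated 1 was called lower and 0 higher by edgeR, or 2 and 0 by DESeq2. At an unadjusted p under 0.05, 9 were lower and 0 higher, where 7.28% and 7.83% of all tested rows were. In CPA_S66 against CPA 1 was called higher and 0 lower, or 2 and 0 by DESeq2, and at an unadjusted p under 0.05, 6 were higher and 0 lower, where 8.55% and 10.4% of all rows were. The median log2 fold change was -0.26 with CPA (-0.01 over all rows) and 0.27 in CPA_S66 against CPA (-0.04 over all rows).
The row called lower was ENSG00000267396, the second row opposite NEDD4L. It stood at 33.9, 34.4, 41.6 and 40.4 CPM untreated, 17.5, 28.8, 18.6 and 21.6 CPM with CPA and 29.6, 23.9, 30.5 and 20.0 CPM in CPA_S66, a log2 fold change of -0.79 ± 0.18 (SE, edgeR adjusted p = 0.00385) with CPA. All CPA libraries were below all untreated ones, and the call was kept under all 22 alternatives. CPA_S66 against CPA was 0.27 ± 0.19 (edgeR adjusted p = 0.482), so this row was not called higher in CPA_S66, unlike the member ENSG00000267743 opposite the same gene, and that difference was not tested.
The second row opposite CEBPZ, ENSG00000272054, stood at 275, 315, 353 and 307 CPM untreated, 209.8, 224, 247 and 234 CPM with CPA and 313, 364, 327 and 318 CPM in CPA_S66. Its log2 fold changes were -0.45 ± 0.09 (SE, edgeR adjusted p = 0.000388) and 0.53 ± 0.09 (edgeR adjusted p = 2.07e-05), with no overlap between CPA and either other group. Both pass the limit on p but are under 1.5-fold, so they were not called. The row called higher in CPA_S66 against CPA was ENSG00000260252 opposite TXNL4B, at 27.5, 30.8, 30.3 and 11.7 CPM untreated, 19.1, 23.5, 22.1 and 19.6 CPM with CPA and 29.6, 36.5, 44 and 33.1 CPM in CPA_S66, a log2 fold change of 0.77 (edgeR adjusted p = 0.0121). That call was lost without CPA_S66 replicate 3 (edgeR adjusted p = 0.0817).
PPHLN1 lies opposite ZCRB1 and PRICKLE1. It stood at 4.16, 2.4, 3.44 and 3.22 CPM untreated, 0.516, 1.4, 0.205 and 0.648 CPM with CPA and 4.46, 2.7, 3.44 and 0.87 CPM in CPA_S66, with log2 fold changes of -2.22 ± 0.69 (SE, edgeR adjusted p = 0.0563) and 2.03 ± 0.70 (edgeR adjusted p = 0.0715). It missed the limit narrowly at no more than 4.46 CPM in any library, and was called in both comparisons by DESeq2 and without CPA replicate 2 or CPA_S66 replicate 4.

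Other genes of the pathways that the members touch were read by their own row and by the row opposite them with the most reads. Of the fibroblast growth factor list 7 of 15 genes had a tested own row. FGF2 and FGF14, both members, were called lower with CPA and higher in CPA_S66, and of the rest 0 were called (0 with CPA and 1 lower in CPA_S66 against CPA at an unadjusted p under 0.05). The list's median log2 fold change with CPA was -0.45 at own rows and 0.19 at the 4 tested opposite rows, against -0.01 over all tested rows. The own-row median includes FGF2 and FGF14, which this contrast chose. Of these opposite rows 0 were called in any contrast (1 higher and 0 lower with CPA at an unadjusted p under 0.05). NUDT6, opposite FGF2, had a mean of 101 CPM untreated, against 27.0 CPM for FGF2's own row, and changed by 0.30 with CPA (edgeR adjusted p = 0.102). ITGBL1, opposite FGF14, was at 0.677 CPM untreated and changed by -0.23 (edgeR adjusted p = 0.963). The direction of FGF2 and FGF14 follows from the rule, so it adds no support.
In the list of ERK feedback genes 14 of 18 had a tested own row and 6 an opposite row. DUSP6, a phosphatase of ERK, was lower with CPA at its opposite row (log2 fold change -1.21, edgeR adjusted p = 3.46e-15) and higher in CPA_S66 against CPA (1.28, edgeR adjusted p = 5.02e-16), and that row is 1 of those the rule sets aside. IER3, an early response gene, moved the other way at its opposite row, by 0.97 (edgeR adjusted p = 1.37e-14) and -1.42 (edgeR adjusted p = 4.65e-20). The own row of PHLDA1 is a member, so its fall and return follow from the rule. Its opposite row PHLDA1-AS1 did not follow it: the means were 895 CPM untreated, 1037 CPM with CPA and 1612 CPM in CPA_S66, with log2 fold changes of 0.21 with CPA (edgeR adjusted p = 0.0847), 0.64 in CPA_S66 against CPA (edgeR adjusted p = 1.45e-08) and 0.85 in CPA_S66 against untreated (edgeR adjusted p = 6.29e-12). CCND1, cyclin D1, fell with CPA by 0.72 at its own row (edgeR adjusted p = 0.0149), did not return in CPA_S66 (0.03 against CPA, edgeR adjusted p = 0.960), and lost its call by DESeq2 and without untreated replicate 4, CPA replicate 3 or CPA replicate 4, with adjusted p up to 0.255. At CCND1's opposite row LTO1 the means were 2601 CPM untreated, 2333 CPM with CPA and 1954 CPM in CPA_S66. The log2 fold changes there were -0.16 with CPA (edgeR adjusted p = 0.244) and -0.26 in CPA_S66 against CPA (edgeR adjusted p = 0.0122), and neither was called. The list's medians were -0.27 at own rows, the member PHLDA1 among them, and -0.24 at opposite rows with CPA.
Of 20 genes of G2 and M phase, 18 had a tested own row, and 0 of these were called with CPA (0 higher and 5 lower at an unadjusted p under 0.05, 0 by DESeq2), with a median of -0.83. Of all tested rows 2.85% were called in either direction. Most of these own rows were scarce, such as TTK at 0.956 and CDK1 at 1.56 CPM untreated, so the absence of calls does not show that they were unchanged. The median rests mainly on such rows. Those with the most reads were CCNA2, cyclin A2, at 70.6, KIF20A at 41.2 and CDC25C at 17.9 CPM untreated. With CPA they changed by -0.11, -0.31 and 0.26 (edgeR adjusted p = 0.799, 0.311 and 0.641). Of the 4 with an opposite row, those of PLK1 and CCNA2 were called lower with CPA at that row. The PLK1 row is the member ENSG00000261266, chosen by this contrast, and its call was lost without the 3 libraries and without CPA replicate 2. CCNA2's own row was not called in CPA_S66 against CPA either (0.24, edgeR adjusted p = 0.365). The row opposite it is that of the coding gene EXOSC9, and whose reads it holds cannot be told. That row fell by 0.61 with CPA (edgeR adjusted p = 0.000603) and was not called higher in CPA_S66 (0.16, edgeR adjusted p = 0.525). Its change is close to the 1.5-fold limit, and the call was lost without the 3 libraries, untreated replicate 3, untreated replicate 4 or CPA replicate 1.
Of the planar cell polarity and WNT list, 11 of 22 genes had a tested own row and 5 a tested opposite row. At own rows 0 were called in any contrast, with medians of 0.46 with CPA and -0.89 in CPA_S66 against CPA. PRICKLE1's own row, at 2.63 CPM untreated, changed by 0.46 (edgeR adjusted p = 0.778) and by -0.59 (edgeR adjusted p = 0.645). At opposite rows the medians were 0.15 and -0.12. PRICKLE1's opposite row is the member ENSG00000257225. The row TAS1R3 opposite DVL1 fell in CPA_S66 against CPA by 0.85 (edgeR adjusted p = 7.00e-06), in the direction opposite to that member. DVL1's own row changed by 0.04 (edgeR adjusted p = 0.979). In the calcium entry list, 0 of 13 own rows were called with CPA (0 at an unadjusted p under 0.05, 0 by DESeq2) and 0 of 7 opposite rows (3 higher and 0 lower unadjusted, 0 by DESeq2). Of all tested rows 2.85% were called in either direction. Several of the own rows were near the floor, such as ORAI1 at 1.46 and TRPC1 at 0.293 CPM untreated, while others, such as TMCO1 at 67.4 CPM, were not. The absence of calls does not show that these genes were unchanged. In the list of YAP and TEAD targets the member F3 was the 1 of 7 own rows called with CPA (edgeR adjusted p = 0.0444), a contrast that chose it, and DESeq2 did not call it (adjusted p = 0.0687). Of the 3 tested opposite rows 0 were called with CPA (0 at an unadjusted p under 0.05). The list's medians with CPA were -0.38 at own rows, the member F3 among them, and -0.16 at opposite rows.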

How the data were processed

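Total RNA of HSC-3 cells was sequenced in 12 libraries, 4 for each of 3 groups. Each deposited table gives unscaled read counts for every gene, made by the authors with HTSeq 0.6.1p1 after trimming (Trimmomatic 0.32 in the protocol, 0.36 in the submitters' processing notes) and alignment with STAR 2.5.2a to GRCh38 with the Ensembl 84 annotation, with the library taken as stranded, per the labels' protocols. The labels name no library kit. The 5 closing rows of reads outside genes entered neither library sizes nor tests. They held 90.5% to 96.3% of unique alignments as reads in no feature.

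A row was kept if 2 or more of the 4 libraries in any group held 5 or more reads, library sizes were recomputed, and TMM factors gave the CPM values. Tests used edgeR 4.0.16 in R 4.3.3, with the quasi-likelihood model fitted once over the 12 libraries by group and Benjamini-Hochberg adjustment over 14911 rows. A call needs adjusted p under 0.05 and 1.5-fold. DESeq2 1.42.0 was an alternative. Steps were tested on simulated data. Coordinates, from 1, are those of GENCODE 44, in which 56558 gene IDs were found and 4117 were not, and opposite exons were taken from it, so a row may differ from the Ensembl 84 feature that was counted. Promoter and microRNA sequences are from RefSeq.

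Every member is named, with its opposite coding gene, except the IDs absent from GENCODE 44, of which 2 are printed, and a few genes that are not reported here. Of the pathway lists, genes called in any contrast are named. The members, lists and role groups were chosen with earlier results of these data known. The samples were not treated as paired by replicate number.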

Additional observations from a re-analysis of the deposited data

Results flagged for a closer look

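In 6 of 114 groups of 4 libraries examined (38 members in 3 groups), 1 library stood apart from the other 3 by more than Dixon's 95% limit for 4 values, and chance flags about 1 group in 20. In the untreated group these were ENSG00000261266, opposite PLK1, with 89.1 CPM in replicate 3, which is above the others and 1 of the 3 libraries rich in non-unique alignments, and NAV2-AS2 with 63.3 CPM in replicate 1, also above the others. In the CPA group IL20RB-AS1 was low in replicate 2, at 8.37 CPM, STARD5 was high in replicate 2, at 7.91 CPM, and ENSG00000256618 was high in replicate 1, at 38.2 CPM. In the CPA_S66 group C11orf68 was high in replicate 2, at 263 CPM.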

How the results depend on the processing

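The number of members was most sensitive to scaling: without TMM factors 26 rows passed the rule, all of them among the 176. Leaving out 1 library gave 158 to 219 rows, with 134 to 160 of the 176 among them, and 21 of the 176 passed under all 19 settings. The cause of these shifts was not tested. In CPA_S66 against untreated, the 4 members called became 8 with no filter on low counts and 2 to 6 when 1 library was left out. Of the other rows opposite the same coding genes, those called with CPA were 2 by DESeq2 and 2 with edgeR's filterByExpr in place of 1, and 1 to 2 when a library was left out. In CPA_S66 against CPA they were 2 by DESeq2 in place of 1, and 0 to 2 when a library was left out. TMM over all gene rows before the filter, an alternative added after seeing the data, gave 161 members. Deviations of same-numbered libraries correlated at -0.03 to 0.07 over 12 pairs, and those of differently numbered ones at -0.08 to 0.09 over 36 pairs. The main fit therefore used no pairing, although low correlations over many scarce rows cannot exclude one. With a replicate block, 441, 723 and 418 rows were called in place of 425, 710 and 433 (CPA against untreated, CPA_S66 against CPA and CPA_S66 against untreated), and 5 members in place of 4. Most members have under 20 CPM, so low read counts limit the precision of their ratios.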
